A study of Mus musculus with 6 samples.

Results

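The clustered protocadherin locus of the mouse was followed through 6 sequencing libraries of embryonic stem (ES) cells. It was taken as chr18:37080001-38010000 of build mm9 and cut into windows of 1 kb, which gave 930 windows of the 2641898 on chromosomes 1 to 19, X and Y. The limits were set by position, not by any measured value, and divide the locus into the Pcdha part (320 windows, to position 37400000), the Pcdhb part (380 windows, to 37780000) and the Pcdhg part (230 windows). The 2000 windows of the 1 Mb before and the 1 Mb after the locus, together called the sides, served for comparison.

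Clustered protocadherins are cell-surface adhesion proteins that neurons use to tell their own branches from those of other cells. Their genes stand in tandem: in Pcdha and Pcdhg a series of large variable exons, each behind its own promoter, is spliced to a shared set of constant exons, whereas each Pcdhb gene is a unit of its own. Single neurons use a few of these promoters, and DNA methylation of the variable exons and their promoters, with the factor CTCF, is known to take part in that choice. ES cells are not neurons. In the gene table of a later build (GRCm38.p6), used here for names and order only, the locus holds 14 Pcdha genes from Pcdha1 to Pcdhac2, 22 Pcdhb genes from Pcdhb1 to Pcdhb22 and 22 Pcdhg genes from Pcdhga1 to Pcdhgc5, of which 21 are marked as protein-coding. Taf7, a subunit of the general transcription factor TFIID, and Slc25a2, a mitochondrial carrier, stand among them. Zmat2 is the neighbour before the locus and Diaph1 the neighbour after it. No gene was placed in a window, because that table and the reads differ in build.

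The cells were C57Bl/6 ES cells kept in leukaemia inhibitory factor without feeder cells, and no group carried a treatment or a genetic change. H2A.B, a short histone H2A variant also named H2A.Bbd, was recovered by chromatin immunoprecipitation (ChIP) with a rabbit antibody raised by the submitters, in 1 library, beside 1 ChIP library made with rabbit IgG. 5-methylcytosine (5mC), the methylated base, was pulled down from denatured DNA (methylated DNA immunoprecipitation, MeDIP) in 3 libraries. Beside them stood 1 MeDIP library made with mouse IgG. The antibody field names the mouse antibody 33D3 in all 5mC replicates but replicate 3, where it gives 5mC without a clone. Whether replicate 3 was made with the same antibody is not told by that field. The description field of both IgG libraries names the H2A.B antibody, whereas their titles and antibody fields give IgG, which was followed. No label tells if the 5mC replicates were separate cultures, and their spread may be technical.

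Reads were counted once per position and strand, and such distinct reads were scaled to the total of each library (CPM). Depth was very unequal: 8053559 distinct reads in H2A.B, 539303 in IgG ChIP, 803580 to 1893285 in the 5mC libraries and 124157 in IgG MeDIP. In the read names, H2A.B and 5mC replicate 1 came from the same lane of 1 flow cell, with reads of 42 bp. 5mC replicate 2 and IgG MeDIP shared lane 1 of the other flow cell, and 5mC replicate 3 and IgG ChIP shared lane 2 of it, all with reads of 50 bp. Between H2A.B and IgG ChIP the effects of antibody, read length and sequencing run cannot be told apart. H2A.B and both IgG groups had 1 library each, so their intervals cover counting error only; PCR reads without molecular identifiers are not independent molecules.

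The locus carried fewer H2A.B reads than the DNA around it, and the shortfall lay in Pcdha and Pcdhb. It held 3229 distinct H2A.B reads, or 3.47 per kb, against 4.36 per kb in the side before and 4.58 in the side after. The density was 0.777 of that of both sides (exact 95% interval 0.746 to 0.809). In Pcdha the ratio was 0.689 (0.645 to 0.736) and in Pcdhb 0.698 (0.656 to 0.741), whereas Pcdhg, at 1.03 (0.965 to 1.10), could not be told from the sides. The 2 sides differed from each other far less, by a ratio of 0.953 (0.914 to 0.994). Across 2734 stretches of 930 kb that tile the genome, each set against its own sides in the same way, 11.7% had a lower H2A.B ratio than the locus, so a shortfall of this size is not rare.

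IgG ChIP did not show the shortfall. It held 234 distinct reads in the locus, a density of 1.13 times the sides (0.959 to 1.32), with 1.02 (0.787 to 1.31) in Pcdha, 1.06 (0.837 to 1.33) in Pcdhb and 1.38 (1.06 to 1.78) in Pcdhg. H2A.B CPM divided by IgG ChIP CPM came to 0.924 (0.809 to 1.06) in the locus and 1.34 (1.22 to 1.48) in the sides. Locus over sides, that ratio came to 0.688 (interval 0.585 to 0.811 on the log scale), and 38 of the 2734 stretches, or 1.39%, lay lower. It was 0.674 in Pcdha, 0.657 in Pcdhb and 0.743 in Pcdhg, so relative to the sides H2A.B lay under IgG ChIP in each of the 3 parts. With all reads as deposited, repeats at a position included, IgG ChIP turned to 0.922 of the sides and the ratio of ratios rose to 0.835 (0.721 to 0.968).

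**Figure D1:**
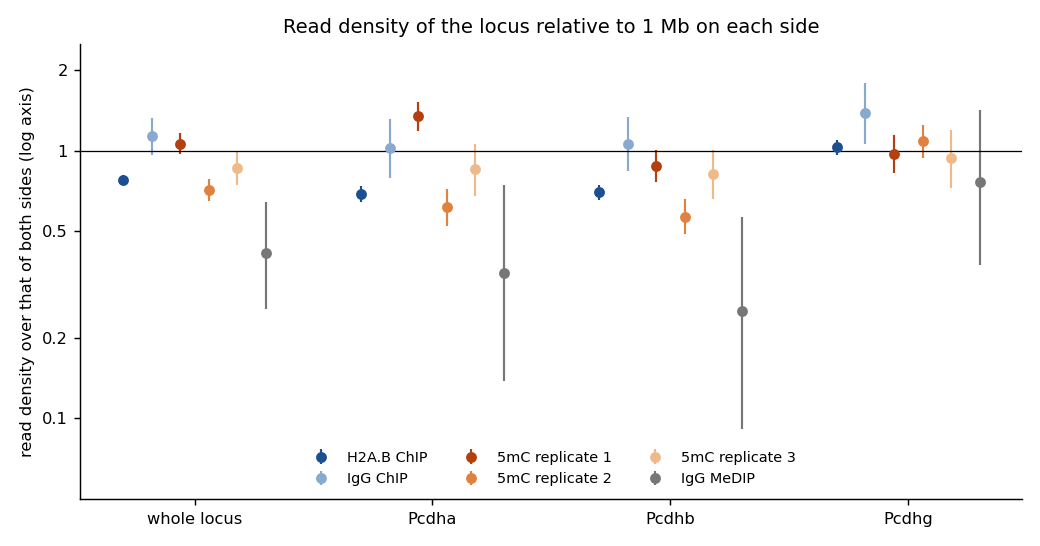
Density of distinct reads in the whole locus and its 3 parts divided by that of both sides, on a log axis, for the 6 libraries; points are ratios and bars exact 95% intervals for counting error. H2A.B sits at 0.689 and 0.698 in Pcdha and Pcdhb and at 1.03 in Pcdhg, and the 5mC replicates spread most in Pcdha.

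In windows of 10 kb, H2A.B counted as higher where its CPM was at least 1.5 times that of IgG ChIP with an exact 95% lower bound above 1, and as lower under the mirrored rule. None of the 93 windows of the locus was higher, which allows a called share of up to 3.23%. The genome-wide share was 0.611%, and 3 of the 200 side windows were higher. The depth of IgG ChIP left the rule little room to call a window higher. Window 37300001-37310000, with 56 H2A.B reads and no IgG ChIP read, had a lower bound of 0.983. Window 37100001-37110000, with 64 and 1, had 0.742, and no window of the locus held more than 69 H2A.B reads. The lack of higher windows therefore cannot show that H2A.B enrichment was absent. With 1 library a side this rule has no p-value. Lower windows numbered 4 of 93, or 4.30%, against 2.66% of the genome's windows and 2 of the 200 in the sides. That order against the genome turned in other settings: 4.30% against 5.20% with all reads as deposited, 1.67% against 1.96% in 5 kb windows and 3.23% against 4.53% in 30 kb windows. The 4 windows rest on few IgG reads. Window 37370001-37380000, in Pcdha, held 21 H2A.B and 7 IgG ChIP reads, a CPM ratio of 0.201 (0.0823 to 0.559). In Pcdhb, window 37620001-37630000 held 25 and 6 reads (ratio 0.279) and window 37740001-37750000 held 22 and 6 (ratio 0.246). In Pcdhg, window 37920001-37930000 held 56 and 9 reads (ratio 0.417, interval 0.205 to 0.958). Against 5mC replicate 1, the library of its own lane, H2A.B was higher in 2 windows and lower in 8 of 90, and the genome's shares were then 5.40% and 6.15%.

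The median 10 kb window held 25.5 H2A.B reads in Pcdha (range 13 to 64), 30 in Pcdhb (14 to 55) and 43 in Pcdhg (25 to 69), beside 41.5 and 46 in the sides. Pcdha itself was not even: its opening 120 kb, an end point chosen after the values were seen, held 4.43 H2A.B reads per kb, close to the sides, and the other 200 kb held 2.28. IgG ChIP held 0.292 and 0.190 reads per kb in the same stretches.

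**Figure D2:**
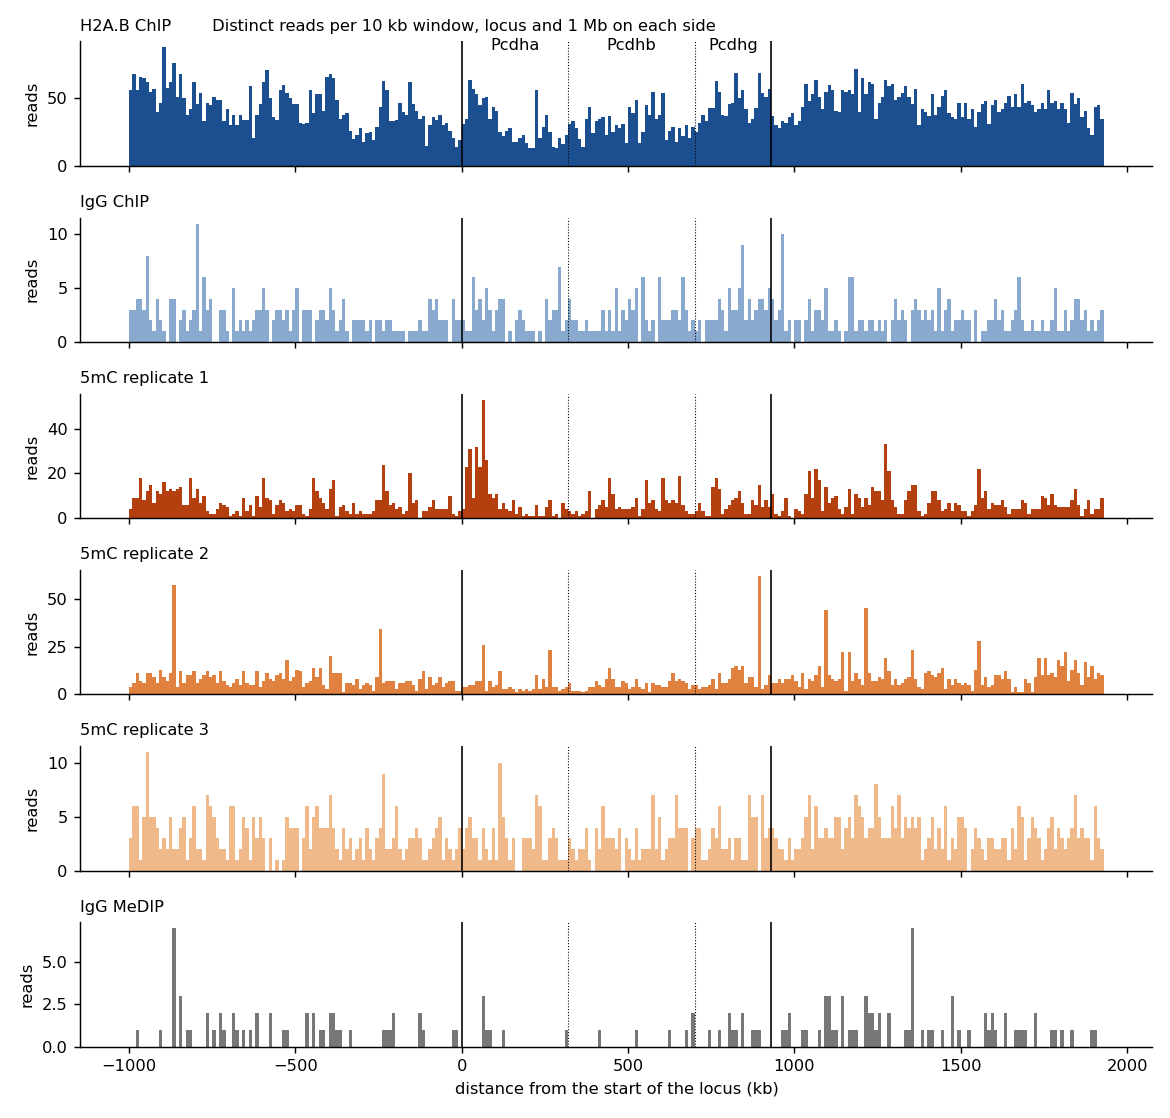
Distinct reads per 10 kb window in the 6 libraries, by distance in kb from the start of the locus, with 1 Mb on each side; solid lines bound the locus and dotted lines separate Pcdha, Pcdhb and Pcdhg. Vertical scales differ between libraries; H2A.B is low in the later part of Pcdha, 5mC replicate 1 peaks in its opening 120 kb, and 5mC replicate 2 has 1 tall window late in Pcdhg.

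Windows with no read in any of the 6 libraries were more frequent in the locus than beside it: 40 of 930 (4.30%) in the locus, 23 of 2000 (1.15%) in the sides and 8.52% in the genome. There were 16 in Pcdha, 21 in Pcdhb and 3 in Pcdhg. A window empty in all 6 libraries has no H2A.B read by definition, so that most lay where H2A.B was low is no separate result. With such windows left out, which removes only windows without an H2A.B read, the H2A.B ratio of locus to sides was 0.802 (0.771 to 0.835). The genes of this locus are close copies of each other, and how reads that match several of them were treated is not stated; the part of mappability in these values was not tested.

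The 3 5mC libraries did not give the locus the same level. Replicate 1 held 701 distinct reads, a density of 1.06 times the sides (exact 95% interval 0.968 to 1.16). Replicate 2 held 605 reads and a ratio of 0.711 (0.647 to 0.780), and replicate 3 held 267 reads and a ratio of 0.860 (0.743 to 0.992). The list of replicate 2 is made of sorted blocks that differ: blocks 1 and 2 gave ratios of 0.654 and 0.669, and the last block, with 135 reads in the locus, gave 0.974. A position found in several blocks was counted in the earliest, so the values of later blocks depend on the order of the list. The mean was 0.877 ± 0.176 (SD, n = 3), so the locus could not be told from its sides beyond the spread between libraries. As levels per 100 kb, the locus held 54.0, 34.4 and 35.7 CPM in replicates 1 to 3, where an even genome would hold 37.9. With all reads as deposited, replicate 3 rose from 267 to 635 reads and its ratio turned to 1.24 (1.12 to 1.37), so its level here depends on how repeated positions are counted.

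The replicates parted most in Pcdha. There the ratio to the sides was 1.34 (1.18 to 1.52) in replicate 1, 0.615 (0.525 to 0.717) in replicate 2 and 0.851 (0.676 to 1.06) in replicate 3, with a mean of 0.936 ± 0.371 (SD, n = 3). In Pcdhb all 3 lay under the sides, at 0.878, 0.567 and 0.819 (mean 0.755 ± 0.166), though the intervals of replicates 1 and 3 reached 1.01. In Pcdhg they were near the sides, at 0.974, 1.08 and 0.937 (mean 0.998 ± 0.0761). Pcdhb thus had fewer reads per kb than Pcdhg in the 3 5mC libraries after scaling to the sides, as in H2A.B. Both IgG libraries had the same order, with 1.06 and 1.38 in IgG ChIP and 0.253 and 0.765 in IgG MeDIP (from 6 and 11 reads).

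The excess of replicate 1 in Pcdha was held by the opening 120 kb, the stretch named above. It contained 236 of replicate 1's 305 Pcdha reads, a density of 2.77 times the sides, and the other 200 kb lay at 0.486. Replicate 2 held 88 reads in the opening stretch (0.801 of the sides) and 0.503 in the rest, and replicate 3 held 40 reads (0.998) and 0.763. The ratios of the later 200 kb of Pcdha were under 1 in H2A.B (0.509), IgG ChIP (0.852), IgG MeDIP (0.160, from 2 reads) and the 3 5mC libraries (mean 0.584 ± 0.156, SD, n = 3). The intervals of IgG ChIP (0.595 to 1.19) and replicate 3 (0.563 to 1.02) covered 1.

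IgG MeDIP was lower still in the locus. It held 24 distinct reads there and 125 in the sides, a density ratio of 0.413 (0.255 to 0.643), and 2.74% of the genome's stretches had a lower one. The CPM ratio of 5mC to IgG MeDIP was 2.60 (1.73 to 4.08), 1.65 (1.10 to 2.60) and 1.72 (1.13 to 2.73) for replicates 1 to 3 in the locus, and 1.01, 0.960 and 0.826 in the sides. By part, the mean level of the 3 5mC libraries was 2.52 times that of IgG MeDIP in Pcdha, 2.78 times in Pcdhb and 1.22 times in Pcdhg, resting on 7, 6 and 11 IgG reads. Locus over sides, the ratio averaged 2.12 ± 0.426 (SD, n = 3), above 97.8% of the stretches; the 3 values share the same 24 IgG reads.

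A test over all stretches did not call this difference. The 5mC libraries were thinned to the depth of IgG MeDIP, which left 60, 31 and 39 locus reads beside the 24 of IgG MeDIP. In limma with an intensity trend, 5mC was higher by 0.79 on the log2 scale (SE 0.41, CPM with a pseudocount worth 0.5 reads), higher in 3 of 3 libraries, with an adjusted p of 0.848 and an unadjusted p of 0.0575. The test called 1 of 2755 stretches higher (0.0363%) and 0 lower (0%), and 153 and 16 reached an unadjusted p under 0.05. The median stretch stood at 0.19 on that scale. An exact permutation of 3 libraries against 1 cannot go below a one-sided p of 0.25.

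Within Pcdha, H2A.B and 5mC replicate 1 formed a regular series of high windows. Thresholds of at least 10 H2A.B reads and at least 5 5mC reads per 1 kb window, used from here on, were set after the values were seen, and what follows is a description. H2A.B windows of at least 10 reads were 54 of 930 in the locus (5.81%), 94 of 2000 in the sides (4.70%) and 2.45% of the genome's. So the locus had a lower H2A.B mean than its sides but no smaller share of high windows: these held 22.2% of its H2A.B reads, against 12.5% in the sides. The variance of the 1 kb counts was 3.25 times their mean in the locus and 1.72 times in the sides.

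In Pcdha 15 such windows made 12 separate places, adjacent windows being taken as 1. The highest window of each began 0, 20, 27, 34, 41, 49, 55, 73, 79, 86, 92 and 101 kb from the start of the locus, and none lay in the later 200 kb. The median gap between these windows was 7 kb, and 9 of 11 gaps were 5 to 9 kb long. In the side before the median gap was also 7 kb, but only 12 of 47 gaps were of that length. In the side after the median was 14 kb, with 6 of 39 gaps of that length. Pcdhb had 21 places with a median gap of 7.5 kb (9 of 20 gaps of 5 to 9 kb), and Pcdhg had 13 with a median of 9.5 kb (4 of 12).

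5mC replicate 1 was high at the same places of Pcdha. Each of the 12 held at least 1 of its reads, from 1 to 17 with a median of 8, and 9 held at least 5. Of all Pcdha windows, 72.2% held no read of replicate 1. The series can be read along the DNA. Window 37100001-37101000 held 15 H2A.B reads and 11 of 5mC replicate 1, and window 37107001-37108000 held 15 and 8. Window 37121001-37122000 held 15 and 5, and window 37135001-37136000 held 14 and 17. Window 37166001-37167000 held 14 and 10, and the last, 37181001-37182000, held 13 and 8. H2A.B and 5mC replicate 1 were thus high together from place to place, and which exon or gene lies in these windows was not determined.

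**Figure D3:**
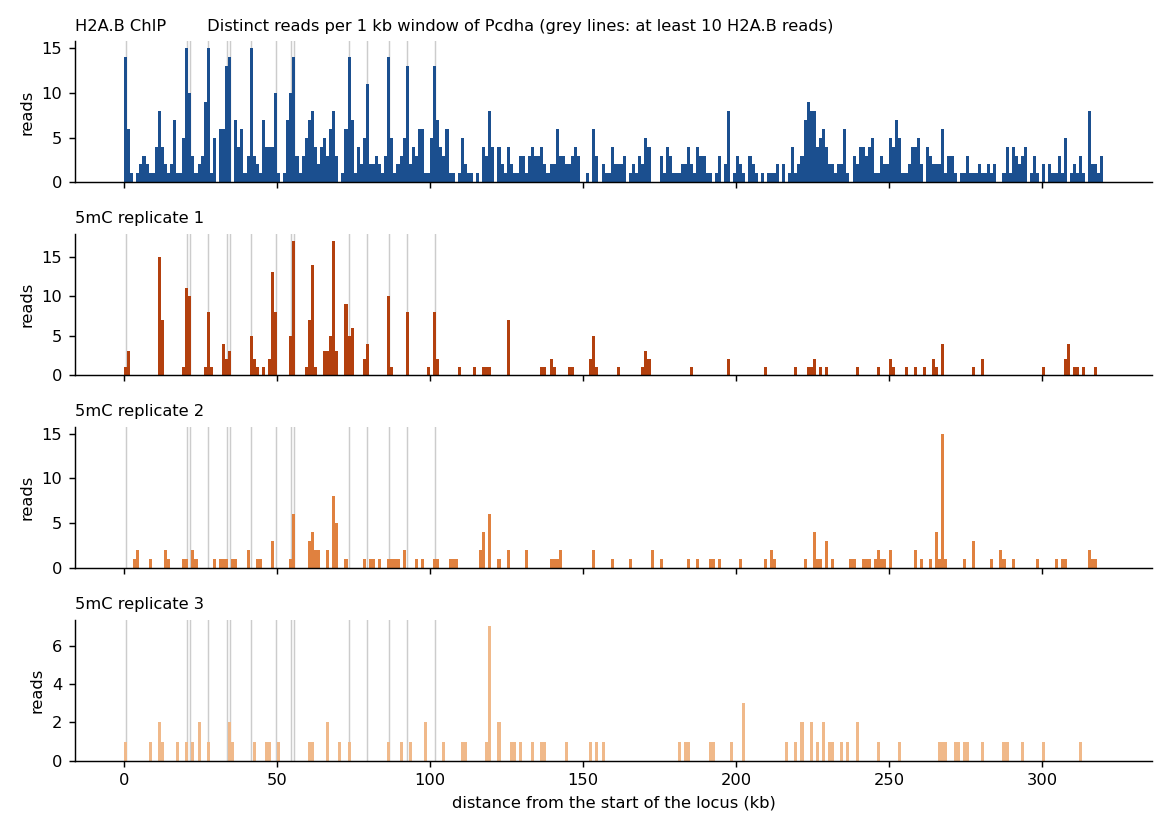
Distinct reads per 1 kb window of Pcdha in H2A.B ChIP and 5mC replicates 1 to 3, by distance in kb from the start of the locus; grey lines mark the 15 windows with at least 10 H2A.B reads. These windows end 102 kb from the start, 5mC replicate 1 rises at most of them, and replicates 2 and 3 do so at few.

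At the 15 high windows of Pcdha, replicate 1 held 7.00 reads per window against 0.656 in the other 305, a ratio of 10.7 (counting interval 8.35 to 13.6). Replicate 2 held 0.733 against 0.554 (ratio 1.32, 0.648 to 2.43), and replicate 3 held 0.467 against 0.275 (ratio 1.69, 0.661 to 3.65). IgG ChIP held 0.333 against 0.223, with a counting interval of the ratio from 0.470 to 3.66. IgG MeDIP held 2 reads in the 15 windows and 5 in the other 305, a ratio of 8.13 whose interval, 0.775 to 49.7, covers both 1 and the value of replicate 1. All 15 windows lay in the opening 120 kb, whereas the other 305 include the later 200 kb. Replicate 1 held 1.97 reads per kb in the opening stretch and 0.345 in the later one, and replicate 2 held 0.733 and 0.460. These ratios therefore also carry that step along Pcdha. At this threshold the series was thus seen in the pair of libraries that share a lane. In the 4 libraries of the other flow cell it was not detectable at this threshold beyond counting error, and in IgG MeDIP the depth does not allow a reading. Replicates 2 and 3 were not compared at other H2A.B thresholds. Replicate 2 had reads at 4 of the 12 places, with 6 in window 37135001-37136000, and replicate 3 had reads at 6. Of all Pcdha windows, 67.2% had no read of replicate 2 and 77.2% had none of replicate 3. Some windows under the threshold, with 8 H2A.B reads, were high in replicate 1. Of these, 37148001-37149000 held 17 of replicate 1 and 8 of replicate 2, and 37091001-37092000 held 15 and 0. The part of the shared lane in the series was not tested.

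In the sides the same comparison gave replicate 1 a ratio of 2.39 (2.01 to 2.84). It gave replicate 2 a ratio of 2.69 (2.32 to 3.10), and replicate 3 stood at 1.12 (0.774 to 1.58). Replicate 1 stood at 4.57 (3.30 to 6.25) in Pcdhb and 4.35 (2.97 to 6.26) in Pcdhg. Replicate 2 stood at 1.54 (0.876 to 2.53) in Pcdhb and at 7.45 (5.63 to 9.81) in Pcdhg, where 2 adjacent windows described below hold 58 of its 85 reads. Replicate 3 reached 2.53 (1.33 to 4.47) in Pcdhb and 2.26 (1.07 to 4.33) in Pcdhg. Over the whole locus the 3 replicates stood at 6.39, 3.73 and 2.21, so H2A.B-rich windows were richer in 5mC reads in all 3. IgG MeDIP, with 8 reads in the 54 windows and 16 in the other 876, gave 8.11 (3.01 to 20.1), and IgG ChIP gave 0.954 (upper bound 1.67). In the sides IgG MeDIP gave 4.33 (2.60 to 6.91) and in Pcdhg 15.0 (3.82 to 62.3). In Pcdhb none of its 6 reads lay in such windows. A ratio above 1 therefore also occurred in a MeDIP library made without the 5mC antibody.

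**Figure D4:**
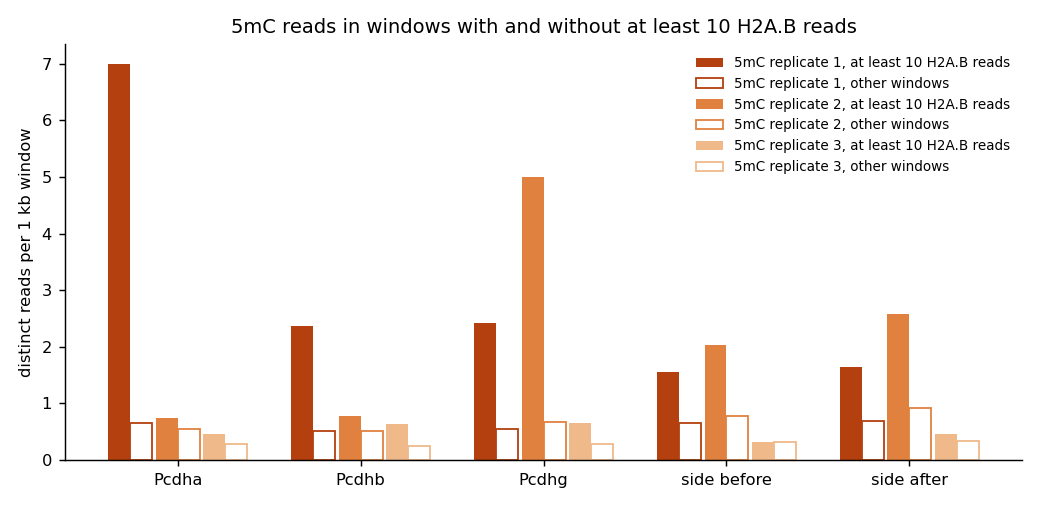
Distinct 5mC reads per 1 kb window, by replicate, in windows with at least 10 H2A.B reads (filled bars) and in all others (open bars), for the 3 parts of the locus and both sides. Replicate 1 reaches 7.00 in Pcdha and replicate 2 reaches 5.00 in Pcdhg; in the other bars no value exceeds 2.57.

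Windows with at least 5 reads of replicate 1 were 35 in the locus (3.76%), 39 in the sides (1.95%) and 1.59% of the genome's. Of the 35, 22 lay in Pcdha, where they held 65.6% of its replicate 1 reads. For replicate 2 they were 13 in the locus (1.40%), 40 in the sides (2.00%) and 1.73% of the genome's, with 5 in Pcdha. Windows that met both the H2A.B and the replicate 1 threshold were 11 in Pcdha, which is 73.3% of its H2A.B windows and 50.0% of its 5mC windows. In the sides they were 9.57% and 23.1%, and in the genome 15.2% and 23.6%.

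The spacing also appeared when each count was set against the count a fixed distance away. In Pcdha Pearson's r of the 1 kb counts of replicate 1 was -0.08 at 3 kb, rose to 0.36 at 6 kb and 0.35 at 7 kb, fell to 0.04 at 10 kb and rose again to 0.34 at 13 kb (305 to 319 pairs of windows of the same library). For H2A.B it was -0.03 at 3 kb, 0.27 at 7 kb, 0.06 at 11 kb and 0.23 at 13 kb. Neither side showed such a rise and fall in replicate 1, where r stayed between 0.01 and 0.11 from 2 to 15 kb. For H2A.B the side before was nearly as high at these distances, with r of 0.20 at 6 kb and 0.22 at 7 kb, but also 0.22 at 3 kb; the side after stayed at or under 0.09. In Pcdhg replicate 1 reached 0.32 at 5 kb and H2A.B 0.18 at the same distance, and in Pcdhb H2A.B reached 0.17 at 12 kb. Replicates 2 and 3 gave 0.08 and 0.10 at 7 kb in Pcdha. These are correlations across windows of 1 library, which share its depth and base composition, and weak ones among sparse counts are not read as findings.

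**Figure D5:**
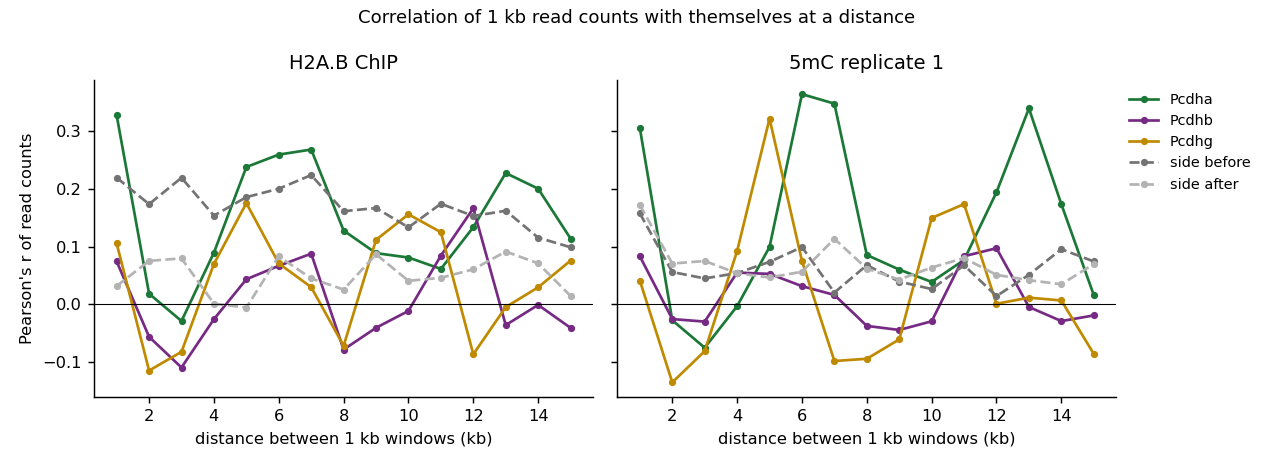
Pearson's r between the read counts of 1 kb windows a given distance apart, in kb, for H2A.B ChIP and 5mC replicate 1, within each part of the locus and each side. In Pcdha both libraries rise near 6 to 7 kb and again near 13 kb; r of replicate 1 is 0.36 at 6 kb.

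Across the 930 windows of the locus, Spearman's rho between H2A.B and replicate 1 was 0.36, against 0.20 in the 2000 side windows. With replicates 2 and 3 it was 0.19 and 0.12 in the locus and 0.11 and 0.07 in the sides. In the locus replicates 1 and 2 stood at 0.22, replicates 1 and 3 at 0.07 and replicates 2 and 3 at 0.04; in the sides replicates 1 and 2 stood at 0.18. H2A.B and IgG ChIP stood at 0.06 in the locus. Depth differs too much between these libraries for the coefficients to be ranked against each other.

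The 5 windows with most H2A.B reads lay in Pcdhb and Pcdhg, and IgG ChIP had no read in any of them, as in 78.4% of all windows of the locus. Window 37681001-37682000, near the end of a run of H2A.B-rich windows in Pcdhb, held 30 H2A.B reads within 481 bp, 20 on the forward strand and 10 on the reverse. It also held 13, 4 and 0 reads of 5mC replicates 1 to 3. Window 37903001-37904000, in Pcdhg, held 24 H2A.B reads and 6, 4 and 0 of 5mC. Windows 37639001-37640000, 37646001-37647000 and 37658001-37659000, all in Pcdhb, held 20 each, with 3, 4 and 4 reads of replicate 1 and at most 2 of the others. Between 37639001 and 37682000, 8 of the 21 H2A.B places of Pcdhb stand within 43 of its 380 kb. That run is bounded by the 4 places of Pcdhb with most H2A.B reads and was chosen after the values were seen.

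A read in each of the 3 5mC libraries was found in 39 of the 930 windows (4.19%), against 4.87% of the genome's windows and 138 of 2000 (6.90%) in the sides. By part they were 8 in Pcdha, 18 in Pcdhb and 13 in Pcdhg. The 5 with the highest summed 5mC CPM all lay in Pcdha, and each was carried by 1 or 2 libraries. Window 37141001-37142000 held 14, 4 and 1 reads of replicates 1 to 3, window 37100001-37101000 held 11, 1 and 1, and window 37166001-37167000 held 10, 1 and 1. In window 37347001-37348000 replicate 2 was the high library, with 4, 15 and 1.

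Window 37199001-37200000 was the only 1 of these 5 in which both 5mC libraries of the other flow cell were high. It held 1, 6 and 7 reads of replicates 1 to 3, with 8 of H2A.B, 1 of IgG ChIP and none of IgG MeDIP. All 6 reads of replicate 2 lay on the reverse strand within 29 bp, and all 7 of replicate 3 on the reverse strand within 238 bp. The IgG ChIP read, also on the reverse strand, lay at 37199301, between the first (37199283) and last (37199311) of replicate 2. The 7 reads of replicate 3 were its most in any window of the locus, and no other held more than 3.

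The tallest window of any 5mC library in the locus was 37972001-37973000, in Pcdhg, with 43 reads of replicate 2, all on the forward strand within 500 bp. Replicate 1 held 3 reads there, replicate 3 none and IgG MeDIP 1. The next window, 37973001-37974000, held 15 more of replicate 2, again all forward. Of the 43 reads, 26 were counted in block 1 of the list of replicate 2, 17 in block 2 and 0 in the last block. As each position counts in the earliest block that holds it, the 0 does not tell if the last block repeated these positions.

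In 10 kb windows the mean 5mC level was highest at 37140001-37150000, in Pcdha, at 18.9 ± 17.1 CPM (SD, n = 3), from 53, 26 and 4 reads, with 3 of IgG MeDIP. It was lowest at 37240001-37250000, also in Pcdha, at 0.653 ± 0.724 CPM, from 2, 1 and 0 reads. The highest and the lowest 10 kb of 5mC in the locus thus both lay in Pcdha, 100 kb apart, and in neither did the 3 libraries hold the same level.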

How the data were processed

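The deposited files list aligned reads. The score column that the authors deposited is constant and was not used. The submitters' processing notes name Bowtie, FastQC and build mm9, without versions; how reads with several matches were handled is not stated there. Left out were 9 malformed lines, the 201263 IgG MeDIP reads that the list of 5mC replicate 2 repeats, and 2691 of its reads with no strand. Reads were placed by their 5′ end, counted once per position and strand on chromosomes 1 to 19, X and Y, and scaled to CPM. Read ratios carry exact 95% Clopper-Pearson intervals; ratios of ratios carry intervals from a normal curve on the log scale.

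The 5mC libraries, thinned to the depth of IgG MeDIP, were tested with limma 3.58.1 (two-sided, Benjamini-Hochberg, threshold 0.05) in stretches of 930 kb, leaving out those under 25% of the median level or over 10 times it in any library. This takes the spread of IgG MeDIP, which has 1 library, to be that of 5mC. Both calling steps were tested on simulated data.

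Windows are named by rule: the 5 with most H2A.B reads, the 5 with most summed 5mC CPM among those with a read in each 5mC library, each 10 kb window called lower or higher, and the 10 kb windows of highest and lowest mean 5mC. The first 120 kb of Pcdha, the windows of the Pcdha series, the 43 kb run of Pcdhb and the tallest windows of replicates 2 and 3 were chosen after their values were seen. The locus, its limits and the lists were chosen with earlier results of these data known. Gene names come from RefSeq on GRCm38.p6, and no sequence of the locus is printed.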

Additional observations from a re-analysis of the deposited data

How the results depend on the processing

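The H2A.B density of the locus stayed under that of the sides in each of 8 alternatives; it moved past its counting interval with sides of 0.5 Mb (0.813) and 2 Mb (0.844). The mean 5mC ratio to the sides stayed within 1 SD of 0.877 in its 12 alternatives, and replicate 1 alone turned from 1.06 to 0.933 without windows over 10 times the median and rose to 1.23 with sides of 2 Mb. H2A.B windows of 10 kb called higher numbered 1 with all reads as deposited and 2 against 5mC replicate 1, and those called lower numbered 1 in 30 kb windows and 8 against 5mC replicate 1. In the limma test 5mC was above IgG MeDIP in all 12 alternatives (0.74 to 1.80 on the log2 scale), with adjusted p from 0.160 to 1.00, and none passed the threshold; leaving out each replicate gave 0.74 to 1.13. Stretches called higher, 1 as reported, numbered 13 at full depth and 5 with no filter (2 lower in each). They numbered 0 with all reads, with reads placed 100 bp downstream, with shorter stretches (3 in the locus), and without replicate 1 or replicate 2; without replicate 3, 1 was called lower. The cause of these shifts was not tested. The 1.80 above belongs to 1 of the 3 shorter stretches of the locus, taken for its smallest adjusted p. The differences of the others are not given. The replicate 1 ratio at H2A.B-rich Pcdha windows ran from 9.63 to 12.9 in 4 alternatives chosen after seeing the data. Further settings, empty windows left out and each side alone, were also chosen after seeing the data and changed no direction. With 24 reads in the locus, IgG MeDIP limits the comparisons made against it. No paired analysis was possible because only the 5mC group has replicate numbers.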
